A study of Mus musculus with 18 samples.

Results

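The mu-class glutathione transferases of the mouse are encoded by *Gstm1* to *Gstm7*, and these 7 genes, of 47729 in the count table, are described here by their RNA in the retinal pigment epithelium (RPE) of *rd1* eyes. They were chosen by gene name, and each was found in the table under a single Ensembl identifier. Transcriptome profiles were made from 9 *rd1* mice at P40, a strain that has lost Pde6b function and whose rods die early in life, so that the eyes of both groups came from the same model of degeneration. All 18 libraries are labelled as *rd1* RPE at P40, in 9 numbered individuals. The methods of the study name fewer pairs for this strain and age, and the labels were followed here, so every n of 9 rests on them. In each mouse, 1 eye received a subretinal mixture of AAV-Best1-Nrf2, which carries the human *NFE2L2* cDNA behind the human Best1 promoter, and AAV-Best1-GFP (the Best1-Nrf2 group or treated eyes, 9 libraries), and its fellow eye received AAV-Best1-GFP alone (the control group, 9 libraries). The Best1 promoter is active in the RPE, and both groups carried the GFP vector. By the methods of the study, the Nrf2 vector was added to it in another capsid, so treated eyes received more vector in total. Vector dose and capsid therefore cannot be told apart from Nrf2 in this comparison. The retina was taken off before RNA was collected from the eyecup, and the poly(A) RNA was amplified. The comparison of the eyes asked which genes of this detoxifying family responded to Nrf2 in the RPE.

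Glutathione transferases join the thiol of glutathione to electrophiles such as products of lipid peroxidation, and the conjugates are then exported and processed to mercapturic acids. The mu class is one of the cytosolic classes, its enzymes act as dimers, and its genes sit side by side in mammals. Nrf2 is a transcription factor that is held back by Keap1 and, when stabilized, binds antioxidant response elements with small Maf proteins. Mu-class genes are known Nrf2 targets in liver, where *Gstm1* is the most studied mouse member.

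On GRCm38 the 7 members lie on chromosome 3 between positions 107895821 and 108044894, a span of 149 kb. *Gstm5* comes first and is the member on the forward strand (107895821 to 107898686). It is followed on the reverse strand by *Gstm7* (107926334 to 107931817), *Gstm6* (107938847 to 107943749), *Gstm3* (107963696 to 107969283), *Gstm2* (107981702 to 107986453), *Gstm1* (108012255 to 108017973) and *Gstm4* (108040408 to 108044894). All are annotated as protein coding.

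The members resemble each other closely enough that reads of one can be given to another, and the clearest case is *Gstm1* and *Gstm3*. Their coding sequences were identical at 89.5% of aligned bases, and they shared an unbroken run of 112 bases (coding bases 389 to 500, counted from the A of the start codon). Bases 400 to 489, inside that run, are printed from GENCODE release M21 transcripts, with capitals for bases unlike *Gstm1*. They show where a read cannot tell *Gstm1* and *Gstm3* apart.
Gstm1: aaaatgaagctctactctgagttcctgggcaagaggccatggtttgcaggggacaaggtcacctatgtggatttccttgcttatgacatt
Gstm3: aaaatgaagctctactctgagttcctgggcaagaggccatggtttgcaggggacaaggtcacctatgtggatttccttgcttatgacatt
Gstm2: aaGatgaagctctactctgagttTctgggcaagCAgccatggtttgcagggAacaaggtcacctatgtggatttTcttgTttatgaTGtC
Gstm7: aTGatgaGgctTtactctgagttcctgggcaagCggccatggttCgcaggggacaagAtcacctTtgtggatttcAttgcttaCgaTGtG
Gstm4: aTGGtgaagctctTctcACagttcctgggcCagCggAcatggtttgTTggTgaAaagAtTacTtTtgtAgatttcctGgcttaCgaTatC
In this stretch *Gstm3* had 0 bases unlike *Gstm1*, *Gstm2* had 10, *Gstm7* had 13 and *Gstm4* had 22. Over whole transcripts, 195 of the 1501 31-base words of *Gstm1* also occurred in *Gstm3*, 22.6% in the processed pseudogene *Gstm2-ps1* on chromosome 5, and 2.60% in *Gstm2*. *Gstm5* was the outlying member by sequence, with 66.1% to 70.5% coding identity to the others and no 31-base word in common with them. The coding sequence was 218 codons long in *Gstm1*, *Gstm2*, *Gstm3*, *Gstm4* and *Gstm7*, 224 in *Gstm5* and 232 in *Gstm6*.

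Control libraries held 18956748 to 44054836 counts and Best1-Nrf2 libraries 32839893 to 49598700, and levels are given as CPM, the counts of a gene in each 1000000 counts of its library, with library totals scaled by the trimmed mean of M values. The delivered factor served as the check of the labels. *Nfe2l2* was at 76.6 (lowest), 82.9 (median) and 134 CPM (highest) in control eyes and at 275, 456 and 703 CPM in Best1-Nrf2 eyes. The groups did not overlap, and the log2 fold change was 2.29 (SE 0.21, edgeR adjusted p = 6.21e-05, higher in 9 of 9 mice). With a covariate for photoreceptor markers it was 1.84 (SE 0.45, edgeR adjusted p = 0.109). Reads of the human cDNA that aligned to the mouse gene and reads of the mouse gene itself cannot be told apart. The eyecup libraries held the RNA of RPE markers at a summed 14464 to 71030 CPM in control eyes, against 17642 to 80718 CPM in treated eyes, with *Rpe65*, the retinoid isomerase, among the 6 of 19 that were lower with Best1-Nrf2. Photoreceptor RNA was present too: 10 of 10 cone markers were lower in Best1-Nrf2 eyes, where their sum lay between 37.1 and 311 CPM, against 287 to 2127 CPM in control eyes. Of the macrophage and microglia markers, 10 of 16 were higher (summed 146 to 495 CPM in control eyes, against 169 to 687 CPM in treated eyes). In such bulk RNA, fewer cells of a type and less RNA per cell cannot be told apart.

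Of the 7 members, 5 were higher in Best1-Nrf2 eyes past the threshold (*Gstm1*, *Gstm3*, *Gstm2*, *Gstm4* and *Gstm7*; edgeR quasi-likelihood test with mouse as a block, adjusted p under 0.05 over 18958 genes), and the fitted difference was above 0 in all 7. With a covariate for photoreceptor markers, which made the SEs larger, 1 member (*Gstm1*) was called. Of all genes tested, 4.25% were called, 3.12% as higher and 1.13% as lower. All 7 members passed the filter on low counts (0.269 CPM of the unscaled library total in at least 9 libraries of either group). *Gstm3*, with 0 control libraries over that level, passed it through the Best1-Nrf2 libraries alone and so had to be higher there. *Gstm6*, with 7 control libraries over it, needed some Best1-Nrf2 libraries to pass, which did not by itself require a difference. The median log2 fold change of the members was 2.06, against -0.03 over all genes tested. In 6 members every Best1-Nrf2 library was above every control library in CPM, a pattern found in 1.04% of the genes tested, and *Gstm5* was the exception. For *Gstm6* the gap was narrow (0.582 against 0.578 CPM) and rests on the scaling of library totals. The same 6 members were higher in the treated eye of all 9 mice, as were 3.11% of the genes tested. Without *Gstm3* and *Gstm6*, 4 of 5 members were called, the same 4 did not overlap, and the median log2 fold change was 2.06. The responses spanned a wide range, from 76.7-fold for *Gstm1* to 2.05-fold for *Gstm5*.

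**Figure D1:**
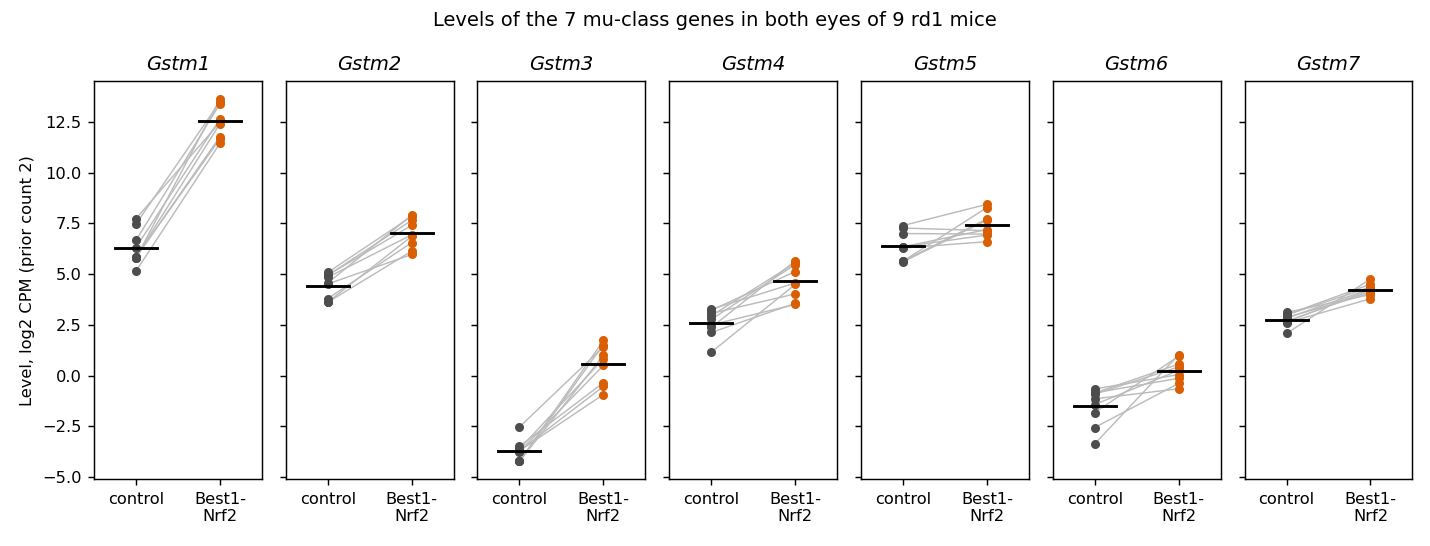
Level of each mu-class gene in each eye, in log2 CPM (prior count 2). Points are libraries, grey lines join the eyes of a mouse, and black bars are group means (n = 9 each). *Gstm1* moves from a mid-range level to the top of the panel in every mouse, whereas the *Gstm5* groups overlap.

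*Gstm1* (ENSMUSG00000058135), a major mu-class enzyme of mouse liver, had the largest fitted log2 fold change of the members, although with the photoreceptor covariate described at the end the value of *Gstm3* (6.03) was above that of *Gstm1* (5.87). It was at 35.4 (lowest), 57.3 (median) and 213 CPM (highest) in control eyes and at 2800, 5722 and 12704 CPM in Best1-Nrf2 eyes. The lowest treated eye was thus far above the highest control eye. The means were 92.5 ± 61.8 and 6915 ± 3804 CPM (SD, n = 9 each), and the log2 fold change was 6.26 (SE 0.35, edgeR adjusted p = 4.78e-06, higher in 9 of 9 mice). This was the 12th largest log2 fold change of the 18958 genes tested. The difference within a mouse ran from 4.74 in mouse 8 to 7.84 in mouse 4 on the log2 scale. Ranked by CPM among all genes of a library, *Gstm1* stood between 672 and 5174 in control eyes and between 5 and 43 in Best1-Nrf2 eyes, where its median rank was 12. Behind these values stood 1528 to 4471 counts per control library and 84880 to 493777 per Best1-Nrf2 library.

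*Gstm2* (ENSMUSG00000040562), whose product is close to that of *Gstm1*, rose from a lower level. Control eyes held 12.2 (lowest), 23.7 (median) and 33.9 CPM (highest), and Best1-Nrf2 eyes 62.7, 123 and 241 CPM. The groups did not overlap. Its log2 fold change was 2.60 (SE 0.20, edgeR adjusted p = 1.86e-05, higher in 9 of 9 mice), with means of 23.2 ± 8.58 and 145 ± 67.6 CPM (SD, n = 9 each). With the photoreceptor covariate it was 1.86 (SE 0.38) and missed the threshold (edgeR adjusted p = 0.0862). *Gstm2* counts were 27.8% of the *Gstm1* counts in control eyes and 2.09% in Best1-Nrf2 eyes, where single libraries ran from 1.78% to 2.96%. The small share of *Gstm2* counts beside *Gstm1*, together with the words they share, leaves a limit on its fold change, since reads moved between them cannot be told apart in gene counts.

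*Gstm4* (ENSMUSG00000027890) and *Gstm7* (ENSMUSG00000004035) were low in control eyes and rose in all 9 mice. *Gstm4* was at 2.16 (lowest), 6.75 (median) and 9.59 CPM (highest) in control eyes, and treated eyes were at 11.3, 23.6 and 50.2 CPM. Its groups were separate, and the log2 fold change was 2.06 (SE 0.30, edgeR adjusted p = 0.00175). *Gstm7* was at 4.16, 7.06 and 8.60 CPM in control eyes, and treated eyes were at 13.8, 18.9 and 27.1 CPM. Its log2 fold change of 1.48 was the smallest of those called, yet its SE of 0.19 was the smallest too (edgeR adjusted p = 7.25e-04). With the photoreceptor covariate the values were 2.26 (SE 0.69) for *Gstm4* and 1.47 (SE 0.45) for *Gstm7*, and neither passed (edgeR adjusted p = 0.131 each). Both genes shared few 31-base words with any other gene, 3.31% for *Gstm4* and 2.62% for *Gstm7*, the lowest shares in the class.

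*Gstm3* (ENSMUSG00000004038) was nearly silent in control eyes. It had 0 to 3 counts per control library, 8 in all, and 3 control libraries were at 0. In Best1-Nrf2 eyes it had 19 to 127 counts per library, 589 in all. The groups did not overlap, and the ratio of the pooled rates was 69.3 (95% interval from counting error alone, 34.9 to 161). The fit gave a log2 fold change of 5.79 (SE 0.64, edgeR adjusted p = 2.31e-04, higher in 9 of 9 mice), a value that depends on the prior count. Scaled to CPM, the treated eyes held 0.469 (lowest), 1.72 (median) and 3.27 (highest), and no control eye was above 0.119.

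The counts of *Gstm3* were a small share of those of *Gstm1* in both groups. They came to 0.0247% of the *Gstm1* counts in Best1-Nrf2 eyes (95% exact interval 0.0228 to 0.0268) and 0.0308% in control eyes (0.0133 to 0.0606). Single Best1-Nrf2 libraries lay between 0.0167% (27 counts, mouse 1) and 0.0339% (60 counts, mouse 8), and control libraries, with 8 counts in all, between 0% and 0.0671%. The intervals overlap between the groups although *Gstm1* itself changed 76.7-fold. *Gstm2-ps1* had likewise 9 counts in control and 1277 in Best1-Nrf2 eyes, 0.0346% and 0.0536% of the *Gstm1* counts. Whether the *Gstm3* counts are *Gstm3* transcripts or *Gstm1* reads from identical stretches such as the one printed above cannot be told apart in these gene counts, and the rise of *Gstm3* is reported as uncertain.

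**Figure D2:**
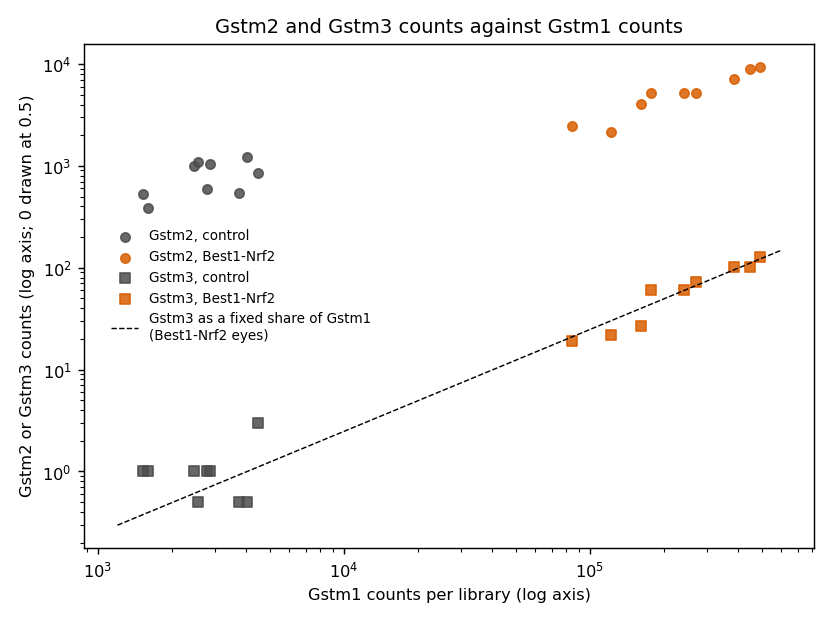
Counts of *Gstm2* (circles) and *Gstm3* (squares) per library against counts of *Gstm1*, both axes logarithmic, with 0 drawn at 0.5. The dashed line is 0.0247% of the *Gstm1* count, the pooled *Gstm3* share in Best1-Nrf2 eyes. The *Gstm3* points of both groups scatter around that line, whereas the control *Gstm2* points, at 27.8% of *Gstm1*, are well above the extension of the treated *Gstm2* points.

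*Gstm6* and *Gstm5* did not pass the threshold. *Gstm6* (ENSMUSG00000068762) had 2 to 23 counts per control library and 18 to 77 per Best1-Nrf2 library. In CPM, it was at 0.0436 (lowest), 0.398 (median) and 0.578 (highest) in control eyes, and treated eyes were at 0.582, 1.14 and 1.98, so that the groups touched without overlapping. The log2 fold change was 1.86 (SE 0.48, edgeR adjusted p = 0.0548, higher in 9 of 9 mice), and the ratio of pooled rates was 3.51 (95% counting interval 2.83 to 4.37). Without the mouse block its adjusted p was 0.0125, with DESeq2 0.00170 and with voom 0.0308.

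*Gstm5* (ENSMUSG00000004032), a mu-class gene known from brain and testis, stood with *Gstm1* at the top of the class in control eyes. Its fitted response was the smallest of the members, but not with the photoreceptor covariate, where it was 2.54 (edgeR adjusted p = 0.0862), above the values of *Gstm2*, *Gstm4* and *Gstm7*. It was at 48.7 (lowest), 81.6 (median) and 169 CPM (highest) in control eyes, and treated eyes were at 97.1, 147 and 348 CPM. The groups overlapped, with 3 control libraries above the lowest Best1-Nrf2 library and 5 Best1-Nrf2 libraries below the highest control library. The log2 fold change was 1.03 (SE 0.31, edgeR adjusted p = 0.103, higher in 7 of 9 mice), and DESeq2 (adjusted p = 0.0151) and voom (0.0374) placed it past the threshold. The difference within a mouse was spread from -0.13 in mouse 5 to 2.65 in mouse 6. Mice 3, 4, 6 and 8 had the largest *Gstm5* differences, and they were the mice whose summed RPE markers were higher in the treated eye. In mouse 5 that sum changed by -1.64 on the log2 scale. This relation was seen afterwards and was not tested. The start of *Gstm5* overlaps the antisense gene *4933431E20Rik*, which holds 11.1% of its 31-base words, and the amplification does not keep strand, so reads there cannot be told apart. That gene was at 10.8 ± 4.78 CPM in control eyes and 9.91 ± 3.42 CPM in treated eyes.

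The members were then compared with each other by the within-mouse difference in log2 CPM (prior count 2), in all 21 pairs, by flipping the signs of the 9 mice in all combinations (2-sided exact permutation test). Leaving aside the pairs with *Gstm3*, the difference passed the threshold in 7 of 15 pairs after adjustment over all 21. *Gstm1* exceeded *Gstm2* by 3.67 on the log2 scale (95% interval 3.10 to 4.24, adjusted exact p = 0.0082, in 9 of 9 mice) and *Gstm7* by 4.78 (4.44 to 5.11). It also exceeded *Gstm4*, *Gstm5* and *Gstm6* (adjusted exact p = 0.0082 each). The pairs with *Gstm3* are not ranked here, because its difference from control libraries of 0 to 3 counts is set by the prior count (4.30 on this scale, against 5.79 in the fit) and its counts may be *Gstm1* reads. For example, its difference from *Gstm1* was 1.96 with a prior count of 2 and 0.74 with 0.5.

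*Gstm2* exceeded *Gstm7* by 1.11 (0.69 to 1.54, adjusted exact p = 0.0137) and *Gstm5* by 1.55 (0.58 to 2.52, adjusted exact p = 0.0189). With the photoreceptor covariate the fitted values were 1.86 (SE 0.38) for *Gstm2*, 1.47 (SE 0.45) for *Gstm7* and 2.54 (SE 0.50) for *Gstm5*. Differences between members were not tested in that fit. Among the lower members the order was not resolved. The difference between *Gstm2* and *Gstm4* was 0.53 (-0.19 to 1.26, adjusted exact p = 0.160), that between *Gstm4* and *Gstm5* was 1.02 (-0.04 to 2.07, adjusted exact p = 0.0762), and that between *Gstm7* and *Gstm5* was 0.44 (-0.34 to 1.21, adjusted exact p = 0.250).

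**Figure D3:**
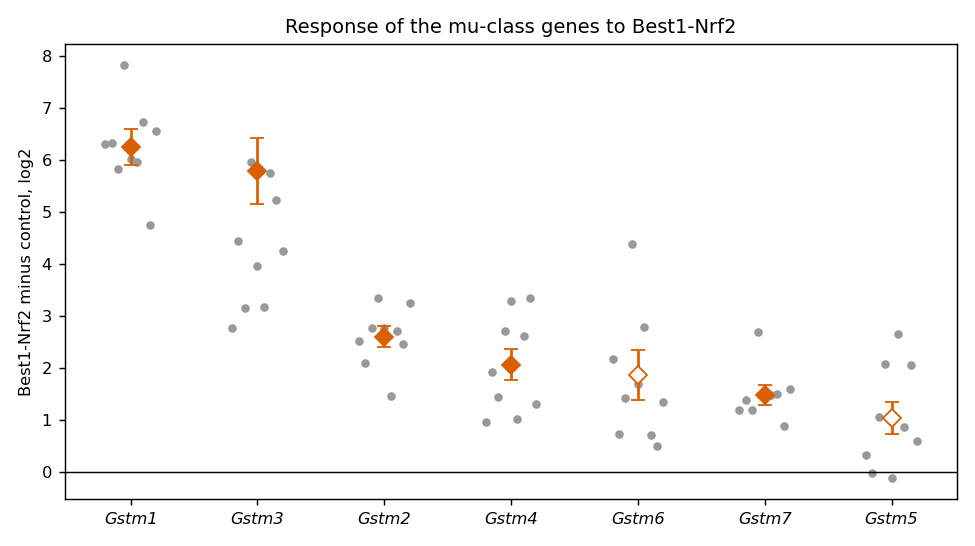
Response of each member to Best1-Nrf2, as the log2 difference between the eyes of a mouse. Grey points are the 9 mice (log2 CPM, prior count 2), diamonds are the edgeR log2 fold change with 1 SE, filled where the adjusted p was under 0.05. *Gstm1* lies between 4.74 and 7.84 in every mouse, and the points of *Gstm5* reach below 0. The *Gstm3* diamond lies above most of its points because the prior count lowers differences from near 0 counts.

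To compare levels between genes, counts were also divided by the length of all annotated exons (CPM per kilobase, RPKM). In control eyes the class was led by *Gstm5* at 73.2 ± 36.0 RPKM and *Gstm1* at 62.8 ± 41.9 RPKM (SD, n = 9), which did not differ beyond their spread (adjusted exact sign-flip p = 0.447). They were followed by *Gstm2* (13.8 RPKM), *Gstm7* (4.26 RPKM), *Gstm4* (3.82 RPKM, not resolved from *Gstm7*, adjusted exact p = 0.449), *Gstm6* (0.176 RPKM) and *Gstm3* (0.0211 RPKM). The steps from *Gstm1* to *Gstm2*, *Gstm2* to *Gstm7* and *Gstm4* to *Gstm6* passed (adjusted exact p = 0.0067 each, in 9 of 9 libraries), and no order is read for *Gstm3*, with its 8 counts.

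In Best1-Nrf2 eyes *Gstm1* stood alone at the top with 4694 ± 2583 RPKM. *Gstm5* followed at 149 RPKM and *Gstm2* at 86.6 RPKM, a step that passed with this length (adjusted exact p = 0.0352) and not with that of the longest transcript (0.431). *Gstm4* (17.05 RPKM) and *Gstm7* (11.97 RPKM) were not resolved from each other (adjusted exact p = 0.202). *Gstm3* (1.32 RPKM, perhaps from *Gstm1* reads) and *Gstm6* (0.606 RPKM) were the lowest. Leaving aside the steps with *Gstm3*, 6 of 9 neighbouring steps passed in both groups together, and 5 of 9 with the longest transcript.

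The class as a whole changed in amount and in makeup. The summed level of the 7 members was 140 (lowest), 230 (median) and 379 CPM (highest) in control eyes, against 2999, 6135 and 13233 CPM in treated eyes, and the means were 32.7-fold apart. As a share of all counts, the class took 0.0147% to 0.0338% without Nrf2 and 0.267% to 1.35% with it. Most of this was *Gstm1*: without it the sum went from 130 ± 47.4 to 386 ± 104 CPM, a 2.96-fold difference. By RPKM, *Gstm1* made up 37.9% ± 14.4 of the class in control and 93.5% ± 3.55 in Best1-Nrf2 eyes (SD, n = 9). The share of *Gstm5* was 47.0% ± 15.2 in control eyes and 4.06% ± 3.42 in Best1-Nrf2 eyes, although its own level was not lower. The lowest *Gstm1* share in treated eyes was 86.5%, in mouse 3, where *Gstm5* still held 10.6%.

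**Figure D4:**
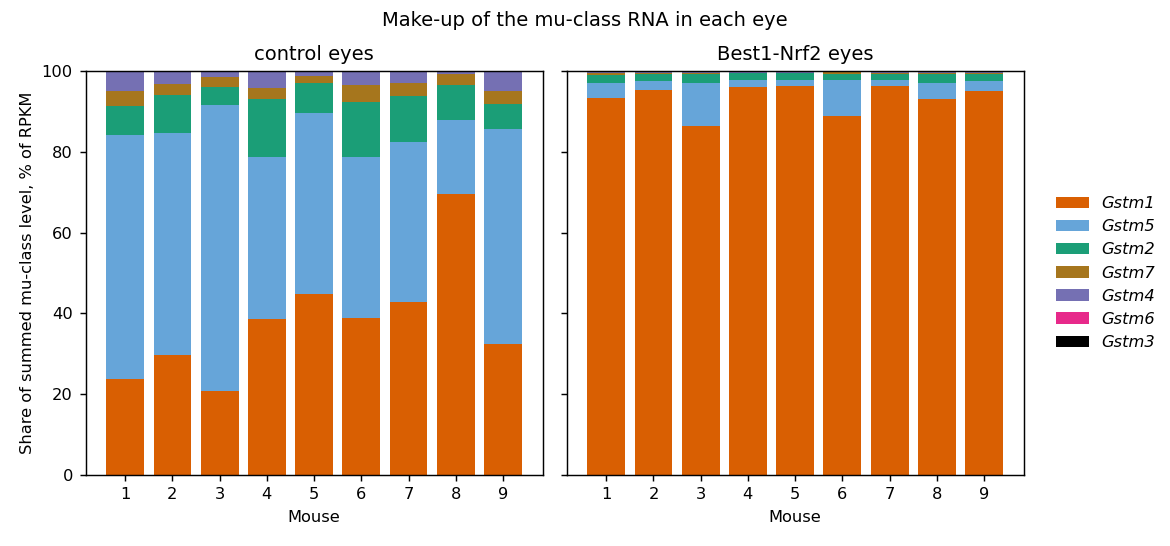
Share of each member in the summed mu-class level (percent of RPKM) in the control and Best1-Nrf2 eye of each mouse. *Gstm1* ranges from 20.8% to 69.6% in control eyes and from 86.5% to 96.4% in Best1-Nrf2 eyes, and *Gstm5* shrinks from 18.3% to 70.9% of the class to 1.36% to 10.6%.

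The treated eyes differed in their *Nfe2l2* level, and *Gstm1*, *Gstm2*, *Gstm4* and *Gstm7* rose with it, as did the counts given to *Gstm3*. Over the 9 Best1-Nrf2 eyes, the log2 CPM of *Gstm7* (Pearson r = 0.84, adjusted exact permutation p = 0.0263; Spearman rho = 0.87, 0.0158) and of *Gstm1* (r = 0.82, 0.0320; rho = 0.80, 0.0194, exact) rose with that of *Nfe2l2*. *Gstm4* (r = 0.79, rho = 0.87), *Gstm2* (r = 0.76, rho = 0.82) and *Gstm3* (r = 0.75, rho = 0.80) passed as well, each with an adjusted exact permutation p of 0.0320 for r, and the *Gstm3* value may be that of *Gstm1* reads. Of all other genes tested, 2.36% reached an r of 0.75 with *Nfe2l2* in these eyes, as these 5 did. *Gstm5* (r = -0.16, adjusted exact permutation p = 0.662; rho = -0.12, 0.776) and *Gstm6* (r = 0.35, 0.405; rho = 0.25, 0.607, exact) did not. These were 7 relations, adjusted together, and the points share the scaling of their library. The treated eyes lowest in *Nfe2l2*, those of mice 6 and 8, also held the most cone marker RNA. Their cone sums were 311 and 226 CPM, against 37.1 to 74.8 CPM in the other treated eyes, and the part of this in the relations was not tested.

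The calls depended on single mice. Without mice 6 and 8, whose *Nfe2l2* levels were farthest from the median, r over 7 eyes was 0.93 for *Gstm1*, 0.95 for *Gstm2*, 0.95 for *Gstm3*, 0.78 for *Gstm4* and 0.96 for *Gstm7*, and 0.33 for *Gstm5* and 0.66 for *Gstm6*. With 8 mice the adjusted p missed the threshold for *Gstm1* to *Gstm4* when mouse 1, 2, 4, 5, 6, 7 or 9 was left out, and for *Gstm7* when mouse 1, 4, 7 or 9 was, with r still at 0.66 or more. The values of *Gstm6* ranged from 0.089 without mouse 4 to 0.78 without mouse 6 (adjusted exact permutation p = 0.0543), and those of *Gstm5* from -0.43 to 0.13. Across the within-mouse differences, *Gstm1* alone passed by Pearson's r (0.87, adjusted exact permutation p = 0.0292; rho = 0.77, adjusted exact p = 0.0595), and there r fell to 0.50 without mice 4 and 8.

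**Figure D5:**
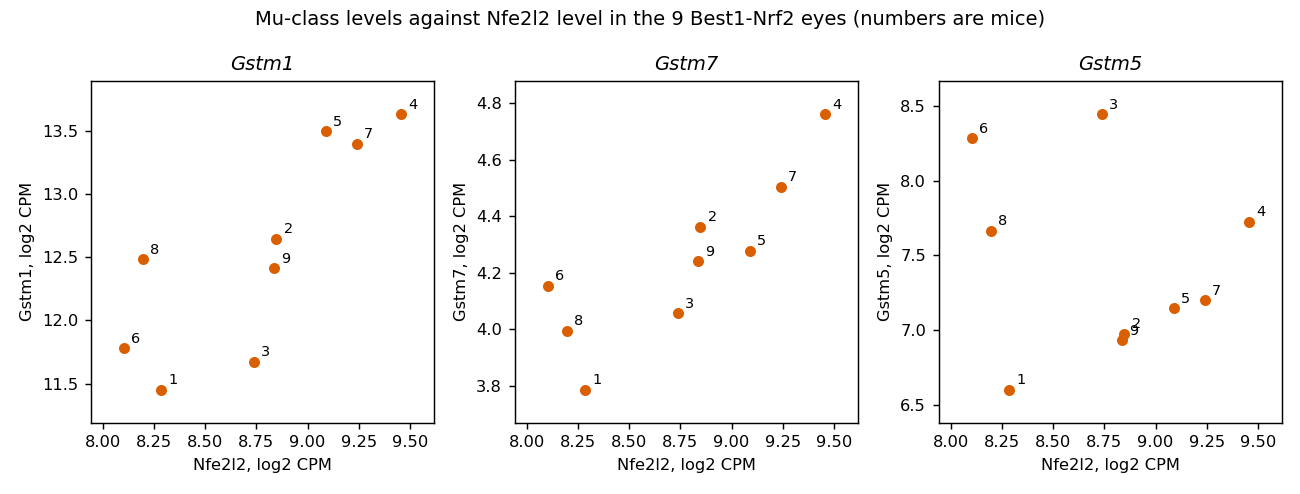
Log2 CPM of *Gstm1*, *Gstm7* and *Gstm5* against log2 CPM of *Nfe2l2* in the 9 Best1-Nrf2 eyes, each numbered by mouse. *Gstm1* (r = 0.82) and *Gstm7* (r = 0.84) rise with *Nfe2l2*, and *Gstm5* (r = -0.16) does not, its highest levels being in mice 3, 6, 4 and 8, of which mouse 4 had the highest *Nfe2l2*.

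Among the members, the within-mouse differences of *Gstm1* and *Gstm7* varied together (r = 0.90 over 9 mice), those of *Gstm6* and *Gstm7* less so by rank (r = 0.80, rho = 0.37), and those of *Gstm1* and *Gstm4* did not (r = -0.11). Outside the class, the 5 genes whose differences were most like those of *Gstm1*, of 11801 ranked, were *Cfap74* (r = 0.90), *Cdc42bpa* (0.89), *Ghdc* (0.87), *Zfp882* (0.87) and *Nfe2l2* (0.87). Of these, *Nfe2l2* was higher in Best1-Nrf2 eyes past the threshold, and the other 4 did not pass (edgeR adjusted p of 0.199 to 0.835). With 9 points and this many genes, such values are a description.

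Promoter windows of the members (250 bases before to 50 after each RefSeq start, GRCm38.p6) were searched on both strands for TGACNNNGC, the core of the antioxidant response element, and for the AP-1 site TGANTCA. The letters TGACNNNGC occurred in 12.4% of all 32817 windows and TGANTCA in 7.81%. Of 12 windows for the 7 members, 1 of *Gstm5* and 1 of *Gstm7* held the former, and that of *Gstm5* also held the latter. The *Gstm5* window (chr3:107895604-107895903, forward strand), the *Gstm7* window with a match (chr3:107931565-107931864, reverse strand) and the *Gstm1* window that reaches the start codon (chr3:108017769-108018068, reverse strand) are printed because they belong to members whose fitted log2 fold changes were 1.03, 1.48 and 6.26, with the matches in capitals.
Gstm5: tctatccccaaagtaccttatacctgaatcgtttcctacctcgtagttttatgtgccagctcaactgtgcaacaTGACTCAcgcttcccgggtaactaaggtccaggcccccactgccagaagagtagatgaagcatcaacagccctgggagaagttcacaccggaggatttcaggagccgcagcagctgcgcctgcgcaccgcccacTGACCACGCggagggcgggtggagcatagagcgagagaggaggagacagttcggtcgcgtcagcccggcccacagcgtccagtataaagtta
Gstm7: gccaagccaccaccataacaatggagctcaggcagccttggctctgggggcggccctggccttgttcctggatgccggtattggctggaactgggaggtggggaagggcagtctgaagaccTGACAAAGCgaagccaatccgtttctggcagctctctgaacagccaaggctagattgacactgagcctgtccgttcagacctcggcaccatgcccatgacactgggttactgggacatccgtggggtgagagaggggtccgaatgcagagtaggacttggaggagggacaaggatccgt
Gstm1: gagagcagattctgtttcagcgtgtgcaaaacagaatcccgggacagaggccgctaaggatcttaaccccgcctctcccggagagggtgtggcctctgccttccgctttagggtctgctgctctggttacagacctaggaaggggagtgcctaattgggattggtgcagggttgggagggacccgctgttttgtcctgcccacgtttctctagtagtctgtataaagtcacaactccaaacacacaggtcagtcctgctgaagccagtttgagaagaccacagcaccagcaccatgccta
The *Gstm5* matches began at positions -176 (TGACTCA) and -42 (TGACCACGC) from the start site, and the *Gstm7* match at -129 (TGACAAAGC). Neither *Gstm1* window held either pattern, which says only that these letters are not in these 300 bases. A match here is a description of letters and not a binding site.

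The genes around the cluster were counted in the same fit. Of 54 other genes in the table within 500 kb of the cluster, 23 were tested, 3 were higher and 1 was lower, beside 3.12% and 1.13% of all genes tested, and their median log2 fold change was -0.04. None of the 9 other genes inside the span of the cluster had enough counts to be tested. Among these, the pseudogenes *Gm9515*, *Gm12494* and *Gm12497* had 0 counts in control and 21, 30 and 13 in Best1-Nrf2 eyes, too few for a test, and *Gm12494* shares 92 words of 31 bases with *Gstm6*. The noncoding gene *Gm12498* went the other way, with 129 counts in control and 47 in Best1-Nrf2 eyes. The others inside the span had 12 counts or fewer in each group. *Csf1*, the macrophage growth factor, was 135 kb away and rose from 7.02 ± 2.87 to 23.84 ± 10.96 CPM (log2 fold change 1.71, edgeR adjusted p = 8.99e-04). *Psrc1*, a spindle gene, had a log2 fold change of 1.13 (edgeR adjusted p = 0.0355), and *Slc6a17*, a vesicular amino acid transporter, 0.64 (0.0485, edgeR). *Gnat2*, the cone transducin subunit, was the lower one (-2.19, edgeR adjusted p = 0.00378) and is also one of the 10 lower cone markers. *Ampd2*, the tested coding gene nearest to *Gstm4* at 29.2 kb, was at 57.8 ± 32.9 and 44.4 ± 19.1 CPM (log2 fold change -0.32, edgeR adjusted p = 0.582). The count of neighbours called was 2 without mouse 2, 4, 5, 7, 8 or 9 and also with no filter on low counts, and it was 0 with the photoreceptor covariate.

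The other glutathione transferase classes gave the setting for the mu class. Of 21 such genes in the table, 19 were tested, 6 were called (4 with the photoreceptor covariate), beside 4.25% of all genes tested, and all 6 were higher, and the median log2 fold change was 0.05. Those that rose were of the alpha and pi classes: *Gsta2* (3.84), *Gstp1* (3.53), *Gstp2* (3.43), *Gsta1* (3.08) and *Gsta3* (2.60), with *Gsta4*, which handles hydroxynonenal, at 1.37 in log2 fold change. *Gstp1* went from 206 ± 94.3 to 2322 ± 729 CPM, and *Gsta4* from 1992 ± 1460 to 4629 ± 2441 CPM (SD, n = 9 each). The theta, omega, zeta and kappa genes tested did not pass.

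Genes that make glutathione and carry its conjugates were counted in the same fit. Of 25 tested, 9 were higher and 1 was lower, beside 3.12% and 1.13% of all genes, and the median log2 fold change was 0.52. With the photoreceptor covariate 1 was called. The largest rises were in *Gclc* (4.72), the catalytic subunit of glutamate-cysteine ligase, *Slc7a11* (3.53), the cystine carrier, *Gclm* (3.43), the ligase modifier, *Ggt5* (3.36), which cleaves glutathione conjugates, and *Abcc4* (2.95), an exporter. *Abcc3*, *Gss*, *Gsr* and *Abcc1* rose too. The gene that fell was *Dpep2*, a membrane dipeptidase (log2 fold change -1.996, edgeR adjusted p = 2.32e-04, lower in 9 of 9 mice). The later mercapturate gene *Nat8* was at 3.21 ± 1.16 and 2.17 ± 1.93 CPM (edgeR adjusted p = 0.326).

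Of 16 genes of the Nrf2 system and its reference targets, 12 were called, all of them higher, beside 3.12% of all genes, and the median log2 fold change was 1.90. With the photoreceptor covariate 1 was called. *Srxn1*, sulfiredoxin, led with 5.56, followed by *Hmox1* (4.50), heme oxygenase, *Txnrd1* (4.08), thioredoxin reductase, and *Pgd* (2.63), an NADPH source. The fitted log2 fold change of *Gstm1*, 6.26, was above that of each listed gene of these 3 lists. That order was not tested.

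The cell markers that moved with the treatment were set beside the response of *Gstm1* mouse by mouse. The summed cone markers fell in 8 mice, by 0.92 in mouse 8 to 5.39 in mouse 9 on the log2 scale, and were at 0.12 above control in mouse 6. The *Gstm1* difference was 5.96 in mouse 6, 4.74 in mouse 8 and 6.57 in mouse 9. The macrophage sum was higher in the treated eye of 7 mice, and the 10 macrophage genes that were called, the complement genes *C1qa*, *C1qb* and *C1qc* among them, were higher in all 9. Cone markers were themselves lower in treated eyes, so a photoreceptor covariate overlaps in part with the group. With the mean of rod and cone markers added as a covariate, SEs grew. They went from 0.35 to 0.73 for *Gstm1*, 0.64 to 1.54 for *Gstm3*, 0.30 to 0.69 for *Gstm4* and 0.19 to 0.45 for *Gstm7*. A missed threshold in this fit is therefore not by itself a smaller response. *Gstm1* kept a log2 fold change of 5.87 (edgeR adjusted p = 0.0130), and the other called members missed the threshold. Their values were then 1.86 for *Gstm2* (edgeR adjusted p = 0.0862), 6.03 for *Gstm3* (0.116), 2.26 for *Gstm4* (0.131) and 1.47 for *Gstm7* (0.131). *Gstm5* was then at 2.54 (0.0862) and *Gstm6* at 2.71 (0.215, edgeR), both larger than without the covariate. The order of the smaller fitted values thus differed between the fits, which was not tested, and 37 genes were called over the whole table. The part of other cell types in these responses was not tested beyond this.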

How the data were processed

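RNA of the RPE from both eyes of 9 *rd1* mice was sequenced (18 libraries), as the labels have it. The study's methods name fewer *rd1* pairs at P40, and this difference could not be settled. RNA was taken from the eyecup without the retina and amplified with a low-input poly(A) kit. Per the labels there was more than one sequencing run, and libraries are not assigned to runs. To count genes, the authors ran STAR on mm10 with Ensembl annotation, featureCounts, and Salmon (version 0.8.1 in the submitters' processing notes). The table the authors deposited holds whole numbers per Ensembl gene, unscaled between libraries, and expected counts were taken as its unit. Which of these counters made it is not given in the sources used here, so the values may be read counts or rounded estimates. Molecules were not tagged, so intervals on counts cover counting error only. How reads were divided between near-identical genes may affect *Gstm1*, *Gstm2*, *Gstm3* and *Gstm6*.

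Symbols matched 47224 of 47729 identifiers, and coordinates are those of GENCODE M21 on GRCm38. After filterByExpr (18958 genes) and TMM scaling, edgeR 4.0.16 in R 4.3.3 fitted mouse as a block and group, with Benjamini-Hochberg adjustment over all genes and a threshold of 0.05. Log2 CPM used a prior count of 2. The pairing comes from the individual number in the labels, which the eyes of an animal share. With group means removed, the eyes of a mouse correlated at a median of -0.00095 (-0.37 to 0.64). The expression values thus do not themselves show the pairing, which rests on the labels alone. Over 72 within-group pairs of libraries, chi-square per degree of freedom was at least 44.5, so none was a duplicate. Exact sign-flip tests over 9 mice cannot go below p = 0.0039. The scripts were tested on simulated data.

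The members, gene lists and tests were chosen with earlier results of these data known. Named are the 7 members, *Nfe2l2*, list genes past the threshold (values for at most 5 a list and direction), called genes within 500 kb, and the 5 genes most like *Gstm1* among those averaging 2 or more in log2 CPM. *Gsta4*, *Nat8*, *Ampd2*, *Rpe65*, *4933431E20Rik*, *Gstm2-ps1*, *Gm12498*, the pseudogenes in the cluster and the macrophage genes were added after their values were seen. Of other cell markers, 1 of 11 rod genes was higher and 3 were lower, and 1 of 10 Müller glia and 1 of 9 fibroblast genes were higher. Alternatives were no replicate block, RLE and upper-quartile scaling, DESeq2 1.42.0, voom of limma 3.58.1 with sample weights, other count filters, a photoreceptor covariate, other lengths and prior counts, and leaving out each mouse. No library was left out.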

Additional observations from a re-analysis of the deposited data

Results flagged for a closer look

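In each group of 9 libraries, the highest and the lowest log2 CPM of the 7 members, the class sum and *Nfe2l2* were screened for a library far from the rest by Dixon's criterion (gap over range above 0.493). Of 18 groups, 3 held such a library, where chance alone gives about 0.9.

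In control eyes *Gstm3* was highest in mouse 5 at -2.538 log2 CPM, and the next library was at -3.493, a gap that is 0.564 of the range. This value stands for 3 counts, and the same library also held 4471 counts of *Gstm1*, the most of any control library. *Gstm7* was lowest in the control eye of mouse 4 at 2.075 log2 CPM, with the next library at 2.603. That mouse had the largest within-mouse differences of *Gstm7* (2.69) and of *Gstm1* (7.84), and the log2 fold change of *Gstm7* was 1.34 without it. *Nfe2l2* was highest in the control eye of mouse 8 at 7.062 log2 CPM, with the next library at 6.598. That mouse had the smallest within-mouse difference of *Nfe2l2* (1.13) and of *Gstm1* (4.74), and the fold changes without it were 2.44 and 6.44 on the log2 scale. The causes were not tested.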

How the results depend on the processing

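The direction of each member held under every alternative in which it was tested. The number of members called was 5 under RLE and upper-quartile scaling, no filter on low counts and each of the 9 fits without a mouse, 7 with DESeq2 and with voom, 4 with at least 10 counts in every library (where *Gstm3* and *Gstm6* were not tested) and 1 (*Gstm1*) with the photoreceptor covariate. Without the replicate block that pairs the eyes, 6 members and 742 genes were called, and *Gstm6* was the addition (log2 fold change 1.78, edgeR adjusted p = 0.0125). Over fits that left out a mouse, log2 fold changes ranged from 6.07 to 6.44 for *Gstm1*, 2.51 to 2.74 for *Gstm2*, 5.44 to 6.09 for *Gstm3*, 1.91 to 2.26 for *Gstm4*, 0.84 to 1.19 for *Gstm5* (edgeR adjusted p 0.0817 to 0.243), 1.54 to 2.02 for *Gstm6* (0.0524 to 0.126) and 1.34 to 1.57 for *Gstm7*. Whole-table calls were 806 (592 higher, 214 lower), with 2434 genes at an unadjusted p under 0.05, against 1478 (940 and 538) with DESeq2, 1426 (924 and 502) with voom and 37 (33 and 4) with the photoreceptor covariate, under which calls in the conjugate pathway fell to 1, in the Nrf2 system to 1 and next to the cluster to 0, while 4 of the other glutathione transferases were called (6 without the covariate) and *Nfe2l2* missed the threshold (1.84, edgeR adjusted p = 0.109). Leaving out a mouse gave 540 to 1046 calls. The lower calls ranged from 116 to 320 (116, 128, 129, 124 and 130 on removal of mouse 1, 3, 5, 7 and 9 in that order), and calls next to the cluster from 2 to 4; these were 2 with no filter as well. Correlations with *Nfe2l2* ranged without 1 mouse from 0.75 to 0.90 for *Gstm1*, 0.66 to 0.96 for *Gstm2*, 0.68 to 0.93 for *Gstm3*, 0.72 to 0.90 for *Gstm4*, -0.43 to 0.13 for *Gstm5*, 0.089 to 0.78 for *Gstm6* and 0.77 to 0.92 for *Gstm7*. The 13 of 21 pairs past the threshold, those with *Gstm3* included, were 12 with a prior count of 0.5 and 13 to 15 without a mouse, and the 8 resolved steps in level, also with *Gstm3* included, were 7 with the longest transcript. Apart from the smaller numbers of mice or genes tested, the cause was not tested. Counting error limits *Gstm3* and *Gstm6* most.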
